A study of Mus musculus with 12 samples.

Results

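The response to imiquimod (IMQ) was examined in the back skin of mice labelled *Lcn2*-/-, by comparing 3 libraries from IMQ-treated mice with 3 libraries from control mice, 6 of the 12 libraries of the study. The members were taken from the column names of the count table, and all genes with enough counts were kept, which left 18529 of 56923 gene identifiers. IMQ is an agonist of the endosomal RNA sensor TLR7, and repeated application to mouse skin gives a psoriasis-like dermatitis with epidermal thickening, scaling and infiltration of neutrophils and macrophages. In this model dendritic cells and γδ T cells release IL-23, IL-17 and IL-22, and keratinocytes answer with alarmins, chemokines and stress keratins. LCN2 (lipocalin 2) is a small secreted protein, made by neutrophils and keratinocytes, that binds bacterial siderophores and so withholds iron from bacteria.

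The mice were female C57BL/6 animals aged 8 to 10 weeks in 4 groups of 3, namely WT control, WT IMQ, LCN2 KO control and LCN2 KO IMQ. WT mice were littermates, and the IMQ groups received 5% IMQ cream on the shaved back for 6 days, whereas the control groups received a vehicle cream (Vaseline) over the same days. The repository labels differ from this description in calling the genotype a knockdown and the control treatment none. RNA was extracted from whole skin, so that fewer cells of a type and less RNA per cell cannot be told apart in any result given here. The text of the extraction protocol speaks of retinas, so the tissue was checked. Basal and suprabasal keratinocyte genes summed to 3898 to 5173 CPM (counts scaled to library size with TMM factors) and 5591 to 7729 CPM, respectively, in the KO control libraries, whereas 12 retina genes together gave 0.915 to 1.92 CPM over the 6 KO libraries.

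The 6 libraries held 17406619 to 28592110 counts on genes, and a count of 3 corresponded to 0.0984 to 0.183 CPM. The first principal component of the 2000 most variable genes (64.2% of the variance) separated the 6 IMQ libraries of both genotypes from the 6 control libraries. The 3 KO control libraries stood apart from each other in hair transcripts. Hair keratins summed to 214.6 CPM in control library 1, 9582 CPM in control library 2 and 3494 CPM in control library 3. Counts of hair follicle regulators and melanocyte genes that fell, and values of a few genes, are also given with control library 1 as the only control. That fit rests on 1 control mouse, so a call lost in it does not show that a change was absent.

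*Lcn2* transcripts were counted in every library labelled *Lcn2*-/-. The level was 10.5, 9.22 and 15.9 CPM in control libraries 1 to 3 and 34.3, 29.9 and 49.8 CPM in IMQ libraries 1 to 3, so that the groups did not overlap, and *Lcn2* rose with IMQ (log2 fold change 1.67 ± 0.40 (SE), adjusted p = 0.0121). The call was lost without IMQ library 3 (adjusted p = 0.0536). In WT skin *Lcn2* had 6.50 ± 2.04 CPM in the WT control and 107 ± 66.5 CPM in the WT IMQ libraries (SD, n = 3 each). The response was smaller in the KO libraries by a log2 difference that missed the threshold (difference -2.36 ± 0.57 on the log2 scale, adjusted p = 0.0552). Gene-level counts do not tell whether these reads came from exons outside the deleted part of the gene, so the groups are called KO here only as the labels give them.

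A total of 4691 genes responded to IMQ in the KO libraries at an adjusted p under 0.05 (edgeR quasi-likelihood test, Benjamini-Hochberg adjustment across the 18529 genes). Of these, 2611 were higher (14.1% of the genes tested) and 2080 were lower (11.2%), and 1367 and 1161 of them also changed by more than 2-fold. With control library 3 left out 1736 genes were called higher, and with IMQ library 1, 2 or 3 or control library 2 or 3 left out 971 to 1365 were called lower. With control library 1 as the only control, 570 genes were called higher and 366 lower. Each library was 1 mouse. The p-values rest on the spread between mice of a group, estimated jointly over the 4 groups of all 12 libraries. The median log2 fold change was 1.04 among the genes called higher and -1.13 among those called lower, against -0.05 over all genes tested. All 3 IMQ libraries lay above all 3 control libraries for 4277 genes (23.1%) and below them for 4228 genes (22.8%).

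Of the protein-coding genes that averaged 1 CPM or more and had separate groups, the largest rises were in epidermal differentiation and acute-phase genes. *Sprr2b*, a small proline-rich cross-linker of the cornified envelope, had 1, 3 and 1 counts in the control libraries and 529, 67.7 and 279.6 CPM in the IMQ libraries (adjusted p = 0.000111). *Pla2g4d*, a cytosolic phospholipase A2 of keratinocytes, was 1110-fold higher over the summed counts (95% exact interval 307 to 9190), and *Sprr2k* was 436-fold higher over the summed counts (95% exact interval 149 to 2120). *Lce3b*, a late cornified envelope protein, went from 0, 3 and 5 counts to 58.8, 41 and 96.3 CPM. *Saa3*, an acute-phase apolipoprotein, went from 0.591, 0.799 and 3.17 to 387, 630.2 and 1347 CPM (log2 fold change 9.03 ± 0.83 (SE), adjusted p = 4.84e-05). The others in this group were *Serpinb3a*, *Gm5416* (log2 fold change 8.56 ± 0.60 (SE), adjusted p = 1.12e-05) and *2300002M23Rik*, which had no count in any control library and was at least 62.4-fold higher when 3 counts over the control group were taken as the floor. The intervals and floors cover counting error only. The largest falls, in *Calhm4*, *Dsg4*, *Krt25*, *Krt31*, *Krt73*, *Krt87*, *Krtap3-3* and *Krtap11-1*, are given with the hair follicle, to which most of these genes belong.

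**Figure D1:**
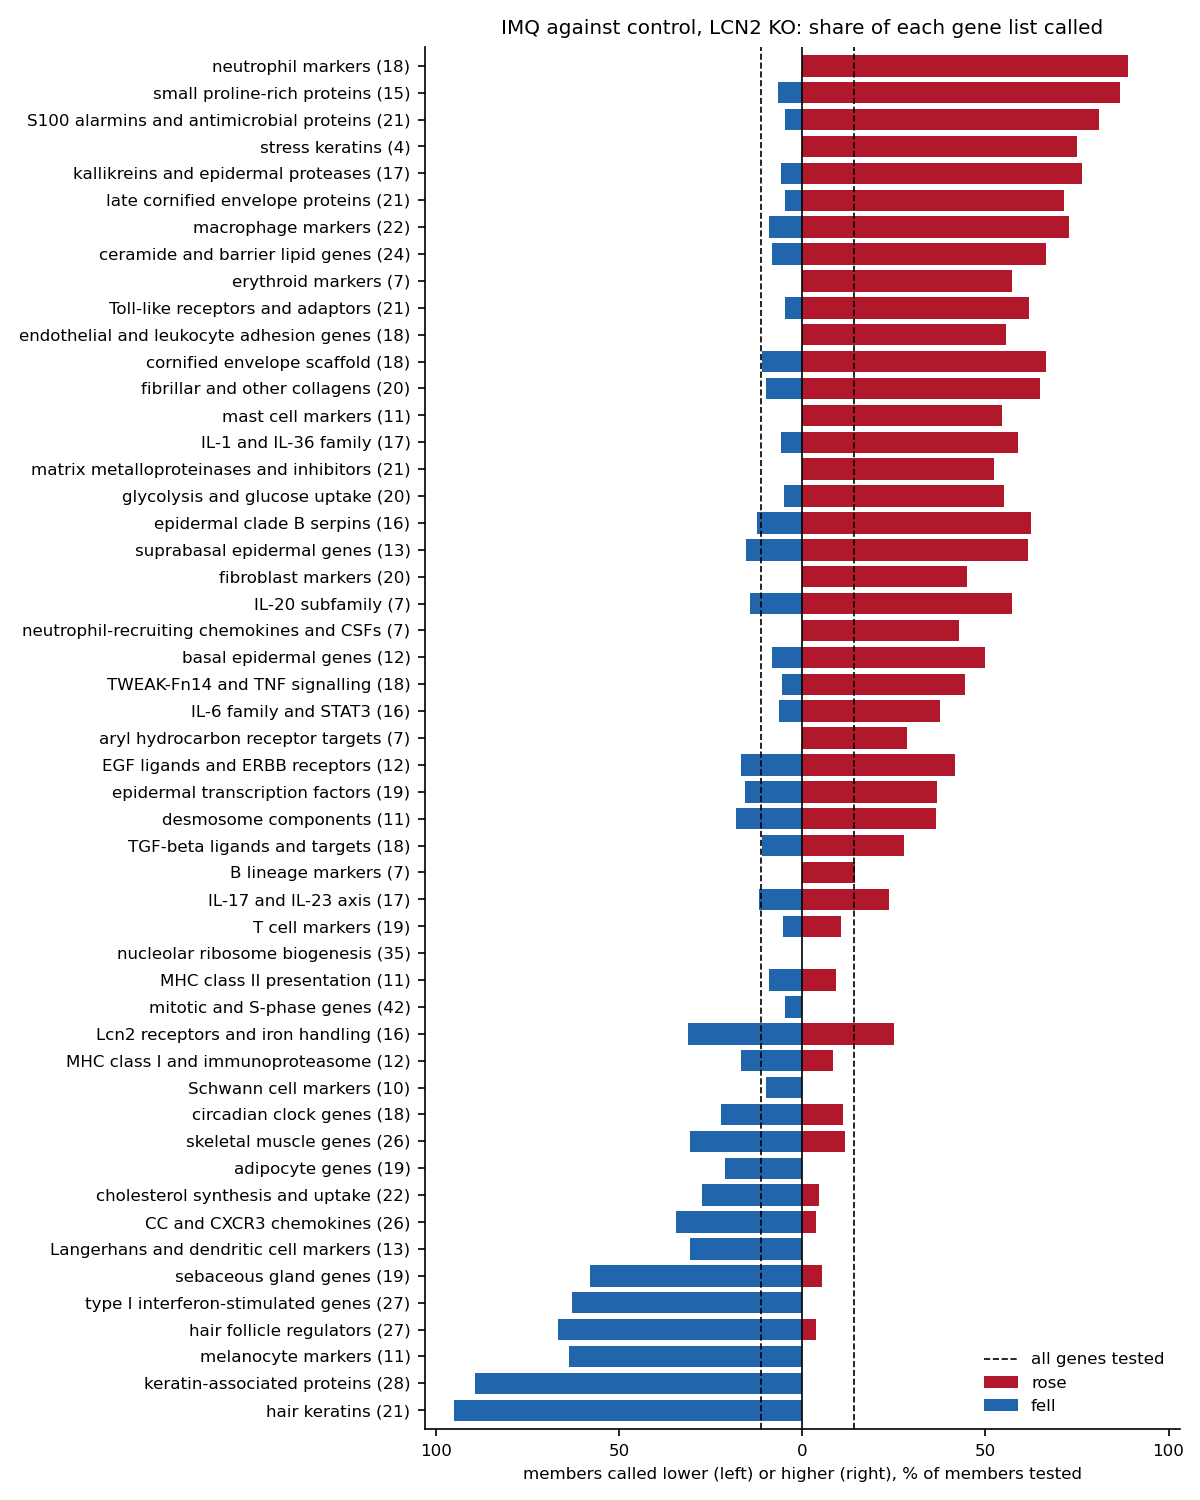
Bars give the percent of tested members of each gene list called higher (red, to the right) or lower (blue, to the left) in LCN2 KO IMQ against LCN2 KO control, with the number tested in parentheses, and dashed lines give the same percent over all genes tested (14.1% higher, 11.2% lower). Neutrophil markers (16 of 18 higher) and small proline-rich proteins (13 of 15 higher) stand at the top and keratin-associated proteins (25 of 28 lower) and hair keratins (20 of 21 lower) at the bottom.

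The keratin programme of the epidermis changed in the KO libraries. Keratins are the intermediate filaments of keratinocytes, and the pairs made differ between the basal layer (K5 and K14), the suprabasal layers (K1 and K10) and wounded or hyperproliferative epidermis (K6, K16 and K17). Among 4 stress keratins 3 rose and none fell. *Krt6b* had 4.01, 16.8 and 2.99 CPM in the control and 1694, 1609 and 2910 CPM in the IMQ libraries (log2 fold change 8.05 ± 1.03 (SE), adjusted p = 0.00042). *Krt16* had 32.1, 49.9 and 25.4 CPM in the control and 2110, 1564 and 2612 CPM in the IMQ libraries (log2 fold change 5.87 ± 0.46 (SE), adjusted p = 1.96e-05). *Krt6a* rose by 4.63 ± 0.43 on the log2 scale. Every IMQ library exceeded every control library for all 3 of these genes. *Krt17*, which is also made in the hair follicle, had 630.3, 1084 and 821 CPM and 359.6, 532 and 768 CPM, with overlapping groups and no call (log2 fold change -0.61 ± 0.32 (SE), adjusted p = 0.176).

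Basal genes moved less. Of 12 genes, 6 rose and 1 fell, with a median log2 fold change of 0.58. *Krt14* had 1254, 1341 and 1371 CPM in the control and 8613, 6027 and 7749 CPM in the IMQ libraries (log2 fold change 2.50 ± 0.25 (SE), adjusted p = 7.36e-05). *Krt5* had 1107, 1547 and 1473 and 3472, 2313 and 2620 CPM (log2 fold change 1.03 ± 0.23 (SE), adjusted p = 0.00756). The hemidesmosome and basement membrane genes *Itga6*, *Itgb4* and *Lamb3*, which anchor basal cells, rose by 1.05, 0.65 and 0.71. *Krt15*, a keratin of basal and bulge stem cells, fell from 348, 414 and 733 to 191, 100.2 and 50.4 CPM (log2 fold change -2.13 ± 0.44 (SE), adjusted p = 0.00562). Among the 13 suprabasal genes 8 rose and 2 fell. *Krt1* rose from 492, 571 and 658 to 8230, 4612 and 2853 CPM (log2 fold change 3.19 ± 0.37 (SE), adjusted p = 0.000183) and *Krt10* from 1291, 989.7 and 1551 to 5396, 3164 and 1802 CPM (log2 fold change 1.44 ± 0.33 (SE), adjusted p = 0.00984). In both genes IMQ library 3 was the lowest of the IMQ libraries. The 2 that fell were *Krt77*, a suprabasal partner of K10, with 1327, 913 and 1461 CPM in the control and 4.27, 7.66 and 1.2 CPM in the IMQ libraries (log2 fold change -8.13 ± 0.76 (SE), adjusted p = 5.27e-05), and the low-level *Krt2*, which had no count in any IMQ library and was at least 10.5-fold lower.

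Genes of the cornified envelope, the cross-linked protein shell of the outermost cells, rose in number above the background of 14.1%. In the scaffold list 12 of 18 rose and 2 fell. *Flg* (filaggrin, which bundles keratin filaments) had 54.2, 61 and 80.4 CPM in the control and 812, 557 and 333 CPM in the IMQ libraries (log2 fold change 3.12 ± 0.40 (SE), adjusted p = 0.00042). *Lor* (loricrin, the main envelope protein) had 97.1, 62.7 and 138 and 481, 348 and 236 CPM (log2 fold change 1.84 ± 0.34 (SE), adjusted p = 0.00313). *Rptn* (repetin) had 58, 51.6 and 75 and 1489, 1143 and 1150 CPM (log2 fold change 4.36 ± 0.25 (SE), adjusted p = 3.29e-06). Of the 2 that fell, *Flg2* changed by -3.54 ± 0.41 and *Tchh*, the trichohyalin of the hair inner root sheath, had 30.9, 2780 and 1243 CPM in the control libraries, in the order of their hair keratins. The *Tchh* call was lost without IMQ libraries 1, 2 or 3 (adjusted p = 0.0612 to 0.0737).

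The small proline-rich and late cornified envelope families, which are encoded side by side in the epidermal differentiation complex, were higher as families. Of 15 SPRR genes 13 rose, and only *Sprr4* fell (-2.89 ± 0.52). The median log2 fold change was 6.44, or 6.05 with the 2 genes of at most 3 control counts at their bound or ratio. *Sprr1b* had 7.59, 12.3 and 7.5 CPM in the control and 579, 697 and 1094 CPM in the IMQ libraries (log2 fold change 6.44 ± 0.52 (SE), adjusted p = 2.09e-05). Of 21 LCE genes 15 rose and *Lce1m* fell (-2.10 ± 0.41). The LCE3 members, known to be induced in wounded and psoriatic skin, rose by 6.39 to 9.09 on the log2 scale (6 genes), whereas the 9 LCE1 members that rose did so by 0.90 to 2.50. *Lce3a* had 8, 4 and 1 counts in the control and 53.2, 27.3 and 70 CPM in the IMQ libraries, and *Lce3f* rose by 8.0 ± 0.61. Members of both families are close in sequence, and how the counter shared reads between copies is not given in the sources used here, so values of single members are uncertain.

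Proteases and their inhibitors of the epidermis rose together. Among 17 kallikreins and other epidermal proteases, some of which shed corneocytes by cutting desmosomal proteins, 13 rose and *St14* fell (-1.38 ± 0.42). *Klk6* had 64, 59.5 and 66.1 CPM in the control and 339, 268 and 361 CPM in the IMQ libraries (log2 fold change 2.35 ± 0.21 (SE), adjusted p = 3.41e-05). *Tmprss11b*, a transmembrane serine protease, rose by 7.34 ± 0.55, and *Tmprss11d* was 93.3-fold higher over the summed counts (95% exact interval 31.5 to 457). Of 16 clade B serpins 10 rose and 2 fell (*Serpinb13*, 19.1-fold lower over the summed counts (95% exact interval 6.32 to 94.7), and *Serpinb7*, -1.34 ± 0.37). *Serpinb3a*, the mouse relative of the human squamous cell carcinoma antigens, had 0.624, 0.906 and 0.581 CPM in the control and 419, 146 and 308 CPM in the IMQ libraries (log2 fold change 8.71 ± 0.42 (SE), adjusted p = 1.72e-06). *Serpinb3d* rose by 7.85 ± 0.72, and *Serpinb3c*, with no control count, was at least 25.7-fold higher, with IMQ counts of 35, 3 and 16. Desmosome genes were mixed, with 4 of 11 higher and 2 lower, against 14.1% of all genes tested called higher and 11.2% lower. *Dsg3*, the desmoglein of basal cells, had 68, 133 and 129 and 231, 214 and 329 CPM (log2 fold change 1.23 ± 0.27 (SE), adjusted p = 0.00761). *Dsg1b* rose by 1.74 ± 0.26 and *Dsg2* fell from 26.7, 53.4 and 41.3 to 13, 15.7 and 12.8 CPM. The *St14* call was lost without IMQ libraries 1, 2 or 3 or control libraries 2 or 3 (adjusted p = 0.0669 to 0.133) and the *Serpinb7* call without IMQ libraries 2 or 3 or control library 3 (adjusted p = 0.0531 to 0.0712). The number of desmosome genes that rose was 2 without IMQ libraries 1 or 3 or control library 1.

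**Figure D2:**
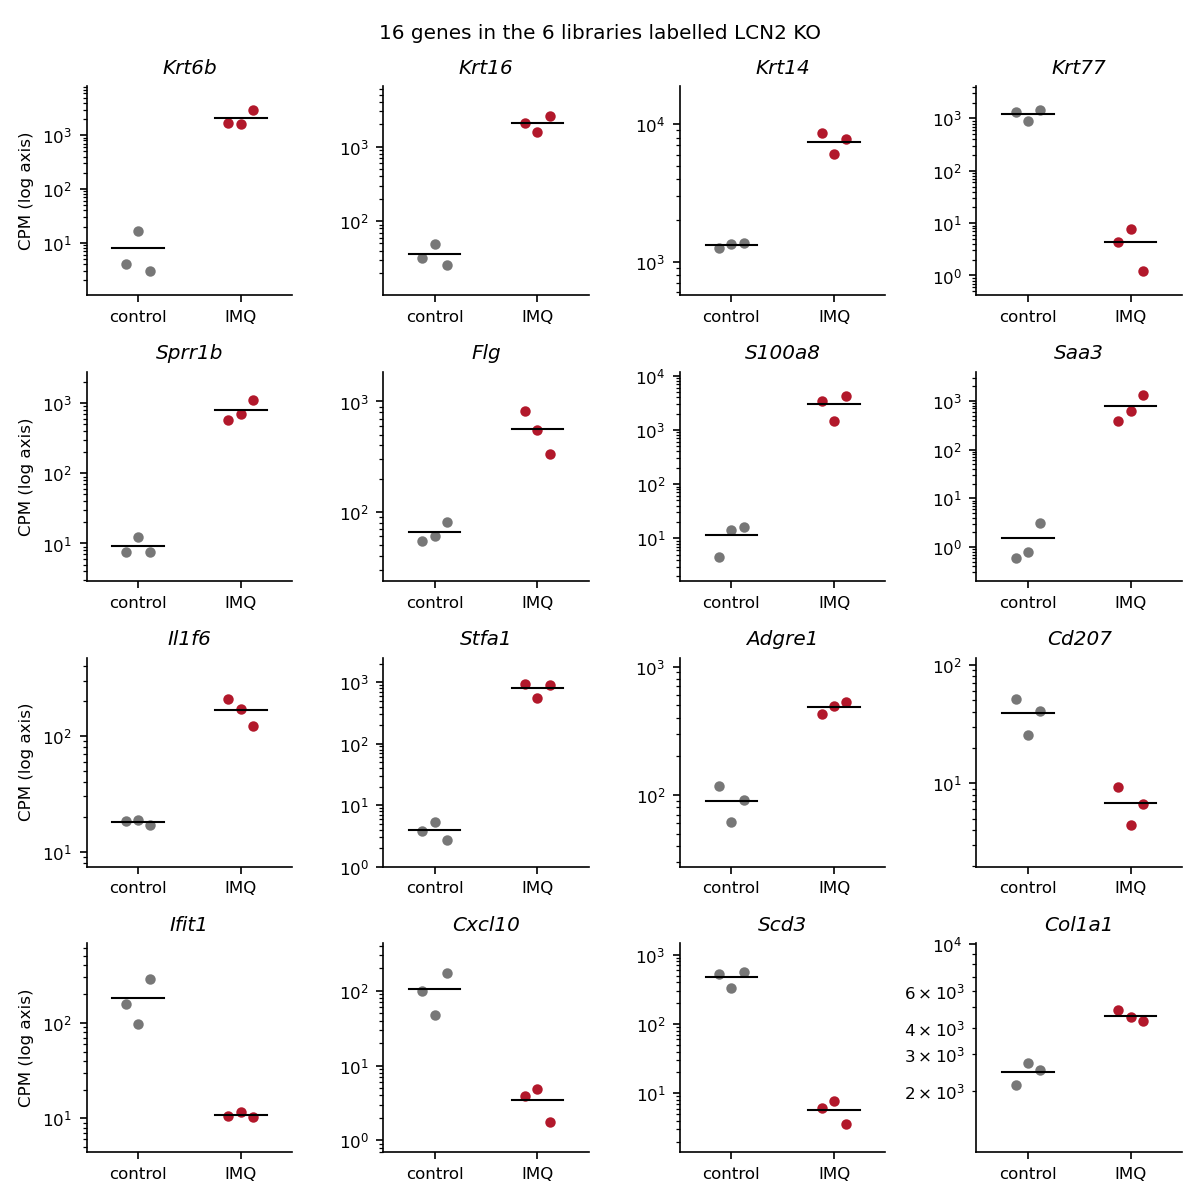
Each panel shows 1 gene, with CPM on a log axis, 1 point per mouse (3 LCN2 KO control, 3 LCN2 KO IMQ) and a line at the mean of the group. In all 16 panels the groups do not overlap; Krt77, Cd207, Ifit1, Cxcl10 and Scd3 were lower with IMQ and the other 11 genes were higher.

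Alarmins and antimicrobial proteins were among the most changed groups, with 17 of 21 higher, 1 lower and a median log2 fold change of 3.54. S100A8 and S100A9 form calprotectin, a metal-chelating alarmin of neutrophils and stressed keratinocytes. *S100a8* had 4.6, 14.5 and 15.9 CPM in the control and 3472, 1463 and 4196 CPM in the IMQ libraries (log2 fold change 8.04 ± 0.77 (SE), adjusted p = 6.02e-05). *S100a9* had 10.4, 19.8 and 31.6 and 4724, 2149 and 5805 CPM (log2 fold change 7.68 ± 0.61 (SE), adjusted p = 2e-05). IMQ library 2 was the lowest of the IMQ libraries for both genes, and it still lay far above every control library. The β-defensin *Defb3* had 6, 6 and 2 counts in the control and 30, 26.8 and 67.2 CPM in the IMQ libraries (log2 fold change 7.67 ± 0.62 (SE), adjusted p = 2.21e-05). *Defb4* was 226-fold higher over the summed counts (95% exact interval 62.2 to 1880). The acute-phase genes *Saa1* and *Saa2* rose as well (6.16 ± 0.89 for *Saa1*), and *Saa2* was 264-fold higher over the summed counts (95% exact interval 90 to 1290). The member that fell was *S100a3* (-7.19 ± 1.89), a protein of the hair cuticle, a call lost without IMQ libraries 1, 2 or 3 (adjusted p = 0.0747 to 0.0773).

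Cytokine genes of the IL-1 family rose, whereas the IL-23 and IL-17 genes were low and mostly not called. Of 17 IL-1 and IL-36 family genes 10 rose and 1 fell. *Il1b* had 14, 8.37 and 17 CPM in the control and 79.3, 30 and 73.1 CPM in the IMQ libraries (log2 fold change 2.21 ± 0.51 (SE), adjusted p = 0.0101). The IL-36 cytokines, epithelial agonists of IL-36 receptor signalling, were represented by *Il1f6* (IL-36α) with 18.3, 18.7 and 16.9 and 209, 171 and 122 CPM (log2 fold change 3.22 ± 0.26 (SE), adjusted p = 2.06e-05) and by *Il1f8* (IL-36β), which rose by 2.66 ± 0.26. *Il1f10*, encoding IL-38, fell (-2.95 ± 0.73, adjusted p = 0.0129). The IL-20 cytokines, which act on keratinocytes, rose from near 0, with 4, 0 and 4 counts of *Il19* in the control and 10, 11.8 and 16.6 CPM in the IMQ libraries (log2 fold change 6.77 ± 0.47 (SE), adjusted p = 1.12e-05). *Il24* was 66.2-fold higher over the summed counts (95% exact interval 22.2 to 325), while their receptor chain *Il20ra* fell (log2 fold change -2.92 ± 0.65 (SE), adjusted p = 0.00788).

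In the IL-17 and IL-23 list 4 of 17 rose and 2 fell, against 14.1% of all genes tested called higher and 11.2% lower. The rise count was 2 without IMQ library 3 or control libraries 2 or 3, and at most 3 with any other single KO library left out. *Il17a* had 9, 3 and 6 counts in the control and 0.733, 1.64 and 2.04 CPM in the IMQ libraries (log2 fold change 2.55 ± 0.69 (SE), adjusted p = 0.0191), and its call was lost without IMQ libraries 2 or 3 or control libraries 2 or 3 (adjusted p = 0.0569 to 0.0762). *Il23a* had 0.985, 0.213 and 0.759 CPM in the control and 0.794, 0.994 and 1.62 CPM in the IMQ libraries (log2 fold change 0.76 ± 0.52 (SE), adjusted p = 0.301). *Il17c*, an epithelial member, had 8, 2 and 2 counts and 4, 2 and 4 counts (log2 fold change 0.31 ± 0.62 (SE), adjusted p = 0.794); neither was called. *Zc3h12a*, which encodes the RNA-degrading feedback enzyme Regnase-1, rose from 46.3, 47.1 and 58.6 to 106, 76.7 and 90.5 CPM (log2 fold change 0.85 ± 0.17 (SE), adjusted p = 0.00411). *Ccl20*, the chemokine that attracts CCR6-bearing IL-17 producers, fell from 11.4, 8.74 and 16.1 to 1.53, 2.34 and 0.36 CPM (log2 fold change -3.09 ± 0.51 (SE), adjusted p = 0.0017). The receptor chain gene *Il17re* fell (log2 fold change -0.93 ± 0.26), a call lost without IMQ library 2 or control libraries 2 or 3 (adjusted p = 0.0553 to 0.0707).

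In the IL-6 and STAT3 list 6 of 16 rose and 1 fell, the rise count being 3 without control libraries 2 or 3. Of all genes tested 14.1% were called higher and 11.2% lower. *Il6* had 1.22, 0.373 and 1.88 CPM in the control and 0.672, 1.7 and 1.5 CPM in the IMQ libraries, with overlapping groups (log2 fold change 0.15 ± 0.76 (SE), adjusted p = 0.908). *Socs3*, the feedback inhibitor induced by STAT3, rose from 23.7, 18.3 and 43.9 to 65.3, 70.9 and 105 CPM (log2 fold change 1.49 ± 0.35 (SE), adjusted p = 0.0103). The cytokine genes *Osm* and *Clcf1* rose by 2.09 ± 0.56 and 1.48 ± 0.39; the *Osm* call was lost without IMQ library 1 or control libraries 2 or 3 (adjusted p = 0.0621 to 0.0729) and the *Clcf1* call without IMQ library 3 or control libraries 2 or 3 (adjusted p = 0.0507 to 0.082).

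TWEAK (*Tnfsf12*) and its receptor Fn14 (*Tnfrsf12a*) are a cytokine pair of the TNF superfamily that the study set out to relate to LCN2. *Tnfsf12* had 10.5, 6.45 and 6.52 CPM in the control and 20.2, 17.8 and 17 CPM in the IMQ libraries (log2 fold change 1.22 ± 0.32 (SE), adjusted p = 0.0157). *Tnfrsf12a* had 28, 31.3 and 21.6 and 33.9, 51.4 and 35.5 CPM (log2 fold change 0.58 ± 0.19 (SE), adjusted p = 0.0445). Neither pair of groups overlapped, but the *Tnfsf12* call was lost without control libraries 2 or 3 (adjusted p = 0.0577 to 0.064) and the *Tnfrsf12a* call without IMQ libraries 2 or 3 or control libraries 1 or 3 (adjusted p = 0.0625 to 0.192). *Tnf* was not called, at 6.34, 2.98 and 5.22 and 4.09, 1.93 and 3.3 CPM (log2 fold change -0.65 ± 0.43 (SE), adjusted p = 0.292), and the TNF receptor gene *Tnfrsf1b* rose from 41.9, 21 and 35.9 to 109, 127 and 144 CPM (log2 fold change 1.94 ± 0.39 (SE), adjusted p = 0.00491). Over the list, 8 of 18 rose and *Birc2* fell (-0.47 ± 0.12), against 14.1% of all genes tested called higher and 11.2% lower. The rise count was 4 to 5 without IMQ libraries 2 or 3 or control libraries 2 or 3, and at most 7 with any other single KO library left out. The *Birc2* call was lost without IMQ library 2 or control library 3 (adjusted p = 0.0568 to 0.0584). *Cd163*, a macrophage scavenger receptor that binds TWEAK, rose by 1.36 ± 0.41, a call lost without IMQ libraries 2 or 3 or control libraries 2 or 3 (adjusted p = 0.0776 to 0.0949).

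The chemokine lists moved in different directions. Of 7 neutrophil-recruiting chemokines and colony-stimulating factors 3 rose (*Cxcl2*, *Cxcl3* and *Cxcl5*) and none fell. *Cxcl3* was 180-fold higher over the summed counts (95% exact interval 49.3 to 1490), *Cxcl2* rose by 5.18 ± 0.94, and *Cxcl5* had 0, 2 and 2 counts in the control and 1.04, 2.34 and 23.9 CPM in the IMQ libraries, IMQ library 3 being the highest. *Cxcl1* was not called, although its groups did not overlap (log2 fold change 1.28 ± 0.62 (SE), adjusted p = 0.148). Among 26 CC and CXCR3 chemokines 1 rose and 9 fell, the background for a fall being 11.2% of genes. *Cxcl10*, an interferon-induced ligand of CXCR3, had 99.7, 46.9 and 171 CPM in the control and 3.91, 4.79 and 1.74 CPM in the IMQ libraries (log2 fold change -4.93 ± 0.52 (SE), adjusted p = 0.000114). *Ccl12*, a monocyte attractant, and *Ccl22*, a ligand of CCR4, fell as well (log2 fold changes -3.07 ± 0.72 and -2.49 ± 0.59). The member that rose was *Cxcl12* (1.44 ± 0.28), the ligand of CXCR4.

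Neutrophil markers rose almost without exception, with 16 of 18 higher, none lower and a median log2 fold change of 3.92. Their summed level was 148 to 221 CPM in the control and 3914 to 6029 CPM in the IMQ libraries. The stefin A gene *Stfa1*, a protease inhibitor of mouse neutrophils and keratinocytes, had 3.84, 5.38 and 2.68 CPM in the control and 939.6, 559.8 and 898 CPM in the IMQ libraries (log2 fold change 7.66 ± 0.63 (SE), adjusted p = 2.34e-05). *Stfa2* rose by 6.77 ± 0.31. *Mmp8*, the neutrophil collagenase, had 0.953, 0.586 and 4.02 and 46, 37.2 and 114 CPM (log2 fold change 5.15 ± 0.65 (SE), adjusted p = 0.000371). *Ly6g*, the surface antigen that defines mouse neutrophils, was at a low level, with 2, 0 and 5 counts in the control and 0.733, 1.05 and 0.84 CPM in the IMQ libraries (log2 fold change 3.08 ± 0.76 (SE), adjusted p = 0.0129), a call lost without control library 1 (adjusted p = 0.0511). Stefin A genes are near-identical copies, and the share of the summed level that came from keratinocytes was not tested.

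Macrophage markers rose as well, with 16 of 22 higher and 2 lower, and a summed level of 1397 to 2988 CPM in the control and 4797 to 6484 CPM in the IMQ libraries. The rise count was 10 without IMQ library 3 or control libraries 2 or 3. *Adgre1*, encoding the F4/80 antigen, had 117, 61.5 and 90.9 CPM in the control and 425, 488 and 528 CPM in the IMQ libraries (log2 fold change 2.42 ± 0.44 (SE), adjusted p = 0.00293). *Chil3*, a chitinase-like protein of activated macrophages, had 1.61, 1.33 and 1.7 and 49.4, 69.4 and 153 CPM (log2 fold change 5.86 ± 0.58 (SE), adjusted p = 7.27e-05). The complement genes *C1qa*, *C1qb* and *C1qc* rose by 1.87, 1.91 and 2.13. The *C1qa* call was lost without IMQ libraries 2 or 3 or control libraries 2 or 3 (adjusted p = 0.0511 to 0.0734) and the *C1qb* call without IMQ libraries 2 or 3 or control libraries 2 or 3 (adjusted p = 0.0523 to 0.0747). The 2 that fell were *Mgl2* and *Retnla*. *Mgl2*, a C-type lectin, had 230.3, 96.2 and 125 CPM in the control and 9.4, 8.95 and 8.46 CPM in the IMQ libraries (log2 fold change -4.08 ± 0.49 (SE), adjusted p = 0.000274). *Retnla* changed by -2.03 ± 0.57. The *Retnla* call was lost without IMQ libraries 1 or 3 or control library 1 (adjusted p = 0.0851 to 0.0973).

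Of 13 Langerhans and dendritic cell markers none rose and 4 fell. The background for each list in this paragraph was 14.1% of all genes tested called higher and 11.2% lower. *Cd207* (langerin, the lectin that forms Birbeck granules) had 51.1, 25.6 and 41 CPM in the control and 9.28, 4.44 and 6.66 CPM in the IMQ libraries (log2 fold change -2.53 ± 0.33 (SE), adjusted p = 0.000424). *Cd209a* and *Xcr1*, markers of dermal dendritic cell subsets, fell (log2 fold changes -2.50 ± 0.41 and -3.41 ± 0.65). MHC class II genes were mostly not called, with *Ctss* higher (1.61 ± 0.33) and *H2-DMb2* lower (-1.51 ± 0.37) among 11; the *H2-DMb2* call was lost without IMQ library 3 (adjusted p = 0.0516). *Cd74*, the invariant chain, had 1752, 770 and 1291 CPM and 976, 659 and 790 CPM (log2 fold change -0.65 ± 0.41 (SE), adjusted p = 0.266), the second control library lying inside the range of the IMQ libraries. T cell markers gave 2 rises (*Cd4* and *Trbc2*) and 1 fall (*Lck*) among 19, against 14.1% of all genes tested called higher and 11.2% lower. The *Trbc2* call was lost without IMQ library 3 (adjusted p = 0.0547) and the *Lck* call without IMQ libraries 2 or 3 or control libraries 1 or 3 (adjusted p = 0.101 to 0.138). *Cd4*, which macrophages also make, rose from 6.54, 3.41 and 8.8 to 33.8, 24.7 and 28.5 CPM (log2 fold change 2.21 ± 0.39 (SE), adjusted p = 0.00263). *Cd3e* had 6.96, 5.06 and 8.26 and 4.15, 2.63 and 2.94 CPM (log2 fold change -1.06 ± 0.56 (SE), adjusted p = 0.183) and was not called. Mast cell markers gave 6 rises among 11, with the proteases *Cma1* (log2 fold change 1.30 ± 0.24 (SE), adjusted p = 0.00292) and *Tpsab1* (log2 fold change 3.40 ± 0.46 (SE), adjusted p = 0.000487) and the IgE receptor chain *Fcer1a* (1.77 ± 0.43, a call lost without IMQ library 3 (adjusted p = 0.051)). Among 7 B lineage genes only *Cd79b* was called (2.57 ± 0.36), and the plasma cell gene *Jchain* had 137, 30.9 and 39.8 CPM in the control libraries, library 1 being the highest, and 15.5, 21.8 and 54.9 CPM in the IMQ libraries. In the MHC class I list *H2-D1* rose by 0.90 ± 0.26, and *Tap1* and *Nlrc5* fell (log2 fold changes -0.78 ± 0.23 and -0.73 ± 0.23). The *H2-D1* call was lost without IMQ libraries 1, 2 or 3 or control libraries 2 or 3 (adjusted p = 0.0644 to 0.0973) and the *Tap1* call without IMQ libraries 1, 2 or 3 or control libraries 1 or 3 (adjusted p = 0.0507 to 0.133). The *Nlrc5* call was lost without IMQ libraries 1, 2 or 3 or control libraries 1 or 3 (adjusted p = 0.0696 to 0.141).

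Type I interferon-stimulated genes fell in the KO libraries. Type I interferons activate a transcription factor complex that includes STAT2 and IRF9 and binds the interferon-stimulated response element (ISRE) in the promoters of antiviral genes. Among 27 genes none rose and 17 fell, with all 27 log2 fold changes below 0 and a median of -1.46. *Ifit1*, an RNA-binding antiviral protein, had 158, 96 and 288 CPM in the control and 10.6, 11.5 and 10.4 CPM in the IMQ libraries (log2 fold change -4.06 ± 0.49 (SE), adjusted p = 0.000299). *Isg15*, a ubiquitin-like modifier, had 51.2, 33.4 and 82.4 and 11.6, 10 and 9.24 CPM (log2 fold change -2.44 ± 0.42 (SE), adjusted p = 0.00234). *Mx2*, an antiviral GTPase, had 27.4, 18.5 and 58.9 and 1.77, 2.46 and 2.4 CPM (log2 fold change -3.98 ± 0.53 (SE), adjusted p = 0.000487). The groups did not overlap in any of these, the IMQ libraries were close to each other, and control library 2 was the lowest and control library 3 the highest of the controls.

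The summed level of the list was 1712, 1075 and 2551 CPM in control libraries 1 to 3 and 523, 581 and 565 CPM in IMQ libraries 1 to 3. In the WT groups it was 417 to 1213 CPM in the WT control and 329 to 422 CPM in the WT IMQ libraries. KO control libraries 1 and 3 lay above all 3 WT controls, and KO control library 2 lay between the highest and the next WT control. With single libraries left out, 12 to 19 of the 27 genes fell, and with control library 1 as the only control 11 did. The regulator genes *Irf9* and *Stat2* had log2 fold changes of -1.0 and -1.27, and *Irf7* was not called (log2 fold change -0.94 ± 0.43 (SE), adjusted p = 0.134). In the WT libraries 0 of the 27 genes rose and 16 fell, with a median log2 fold change of -1.53. The difference of responses was called for 1 of the 27, lower in the KO libraries, against 0.783% of all genes tested.

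The promoter letters of some of these genes are shown because of the response element named above. Members of the list were not chosen by their promoter letters. In RefSeq promoters of mouse build GRCm38.p6, 20 of the 27 genes had an entry. The ISRE core letters GAAANNGAAA, read on either strand in the 250 bases before the start, were in 10 of these 20 (50%) and in 936 of all 27025 genes with an entry (3.46%). Among the genes that fell 6 of 13 (46.2%) had a match, and among those not called 4 of 7 (57.1%). The windows printed are 90 bases each, 5′ to 3′ on the gene's strand, with matches in capitals, for 4 genes that fell and for *Bst2*, which was not called (log2 fold change -0.24 ± 0.40 (SE), adjusted p = 0.702).
*Isg15* (chr4:156200841-156200930, minus strand): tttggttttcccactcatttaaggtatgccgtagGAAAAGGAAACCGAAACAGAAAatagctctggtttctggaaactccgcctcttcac
*Ifit1* (chr19:34640754-34640843, plus strand): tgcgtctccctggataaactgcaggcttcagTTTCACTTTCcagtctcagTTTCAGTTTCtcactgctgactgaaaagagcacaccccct
*Ifit3* (chr19:34583350-34583439, plus strand): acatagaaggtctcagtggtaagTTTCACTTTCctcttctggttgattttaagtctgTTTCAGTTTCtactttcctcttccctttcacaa
*Rsad2* (chr12:26456523-26456612, minus strand): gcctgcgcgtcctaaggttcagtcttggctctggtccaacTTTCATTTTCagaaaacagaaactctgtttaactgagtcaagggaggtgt
*Bst2* (chr8:71537550-71537639, minus strand): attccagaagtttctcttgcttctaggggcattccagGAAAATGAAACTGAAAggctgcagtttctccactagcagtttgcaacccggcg
The 3 matches of *Isg15* overlap each other and the 2 of *Bst2* overlap as well, while those of *Ifit1* and *Ifit3* are separate. The corresponding window of *Ifit3b* held the same letters as that of *Ifit3*, and the reads of this near-identical pair (-3.07 ± 0.46 and -3.18 ± 0.46) may have been shared by the counter. *Rsad2* fell (log2 fold change -2.71 ± 0.49). A match describes the letters only.

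Genes of the hair follicle made up the largest falls, and the size of these falls rested on 2 of the 3 control mice. The follicle cycles through growth, regression and rest, and hair keratins and keratin-associated proteins (KRTAP), the filaments and matrix of the shaft, are made during growth. Among 21 hair keratins 20 fell and none rose, and among 28 KRTAP genes that passed the count filter, of 57 listed, 25 fell. Hair keratins summed to 215, 9582 and 3494 CPM in control libraries 1 to 3 and 9.39, 18.4 and 9.46 CPM in IMQ libraries 1 to 3. The KRTAP sum was 1.9, 4222 and 474 CPM in control libraries 1 to 3 and 0.793, 5.67 and 0.3 CPM in IMQ libraries 1 to 3, so that control library 1 lay inside the range of the IMQ libraries.

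*Krt71*, a keratin of the inner root sheath, had 39, 2879 and 1097 CPM in the control and 0.55, 3.39 and 0 CPM in the IMQ libraries (log2 fold change -9.97 ± 2.94 (SE), adjusted p = 0.033). *Krt25* (47.6, 2347 and 896 CPM in the control libraries) and *Krt73* (41.5, 719 and 281 CPM) followed the same order of control libraries. *Krt31*, a keratin of the shaft, was 2580-fold lower over the summed counts (95% exact interval 463 to 102000), and *Krtap11-1* was 3880-fold lower over the summed counts (95% exact interval 697 to 153000). *Krt81* had 0, 3571 and 598 counts and *Krt72* 0, 3423 and 1841 counts in the control libraries, and neither had any in the IMQ libraries. Over the summed counts they were at least 973-fold and at least 1230-fold lower. These folds came from control libraries 2 and 3 alone, as control library 1 did not differ from the IMQ libraries. *Krt87* and *Krtap3-3* were 3050-fold lower over the summed counts (95% exact interval 547 to 120000) and 1650-fold lower over the summed counts (95% exact interval 296 to 65200), and *Dsg4*, a desmoglein of the hair, and *Calhm4*, a channel gene, were at least 388-fold lower and at least 612-fold lower. With the genes of at most 3 counts in the IMQ group at their bound or ratio, the median log2 fold change was -9.20 for hair keratins and -7.71 for KRTAP genes, against fitted medians of -9.88 and -10.51.

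The calls of these hair genes were not stable against single mice. Those of *Krt71*, *Krt25*, *Krt72*, *Krt81* and *Calhm4* were lost without any of 5 libraries, for *Krt71* without IMQ libraries 1, 2 or 3 or control libraries 2 or 3 (adjusted p = 0.0586 to 0.115). The *Krt31* call was lost without IMQ libraries 1, 2 or 3 (adjusted p = 0.0755 to 0.0852), the *Krt87* call without IMQ libraries 1, 2 or 3 (adjusted p = 0.0556 to 0.0739) and the *Krt73* call without IMQ libraries 1 or 3 (adjusted p = 0.0556 to 0.063). The *Krtap11-1* call was lost without IMQ libraries 1, 2 or 3 (adjusted p = 0.0566 to 0.0758), the *Krtap3-3* call without IMQ libraries 1, 2 or 3 (adjusted p = 0.0576 to 0.0653), the *Dsg4* call without IMQ libraries 1, 2 or 3 or control library 3 (adjusted p = 0.0673 to 0.0897) and the *Padi3* call without IMQ libraries 1, 2 or 3 (adjusted p = 0.0714 to 0.0864).

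The number of hair keratins that fell was 5 to 13 without IMQ libraries 1, 2 or 3 or control libraries 2 or 3, and the number of KRTAP genes 1 to 15 without IMQ libraries 1, 2 or 3 or control libraries 2 or 3. Against control library 1 alone, fitted log2 fold changes were -7.30 for *Krt73*, -5.87 for *Krt25*, -4.88 for *Krt71* and -7.03 for *Dsg4*. They were -3.17 for *Krt87* and -2.00 for *Krt31* and *Krtap11-1*, while *Krt72* and *Krt81* had no counts to compare. *Krt84* was the only hair keratin with a log2 fold change above 0 over all 3 controls. It had 0.328, 6.18 and 0.536 CPM in the control and 4.34, 4.09 and 7.02 CPM in the IMQ libraries and was not called (log2 fold change 1.17 ± 0.81 (SE), adjusted p = 0.314). Among 27 regulators of the follicle 18 fell and 1 rose, and 5 fell against control library 1 alone. *Lgr5*, a stem cell receptor of the follicle, had 23, 58.8 and 41.7 CPM in the control and 13.2, 11.3 and 6.66 CPM in the IMQ libraries (log2 fold change -1.98 ± 0.47 (SE), adjusted p = 0.0108), a call lost without IMQ library 3 (adjusted p = 0.0523). Against control library 1 alone the *Lgr5* change was -1.15 (adjusted p = 0.29) and that of *Gata3*, described next, -1.14 (adjusted p = 0.0416). *Gata3*, a regulator of the inner root sheath, fell from 56.5, 113 and 102 to 31.4, 23.3 and 22.5 CPM (log2 fold change -1.82 ± 0.27 (SE), adjusted p = 0.000893). *Padi3*, which citrullinates trichohyalin, had 2.37, 133 and 62.6 and 1.22, 0.643 and 0.96 CPM. Melanocyte markers, which follow the pigmented growing hair, gave 7 falls among 11, 1 to 2 without IMQ libraries 1, 2 or 3 or control library 2. *Dct* had 117, 274 and 167 CPM in the control and 51.7, 52.6 and 36.3 CPM in the IMQ libraries (log2 fold change -1.99 ± 0.45 (SE), adjusted p = 0.00889). With control library 1 as the only control, 0 melanocyte markers fell, and the *Dct* change was -1.32 (adjusted p = 0.211).

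**Figure D3:**
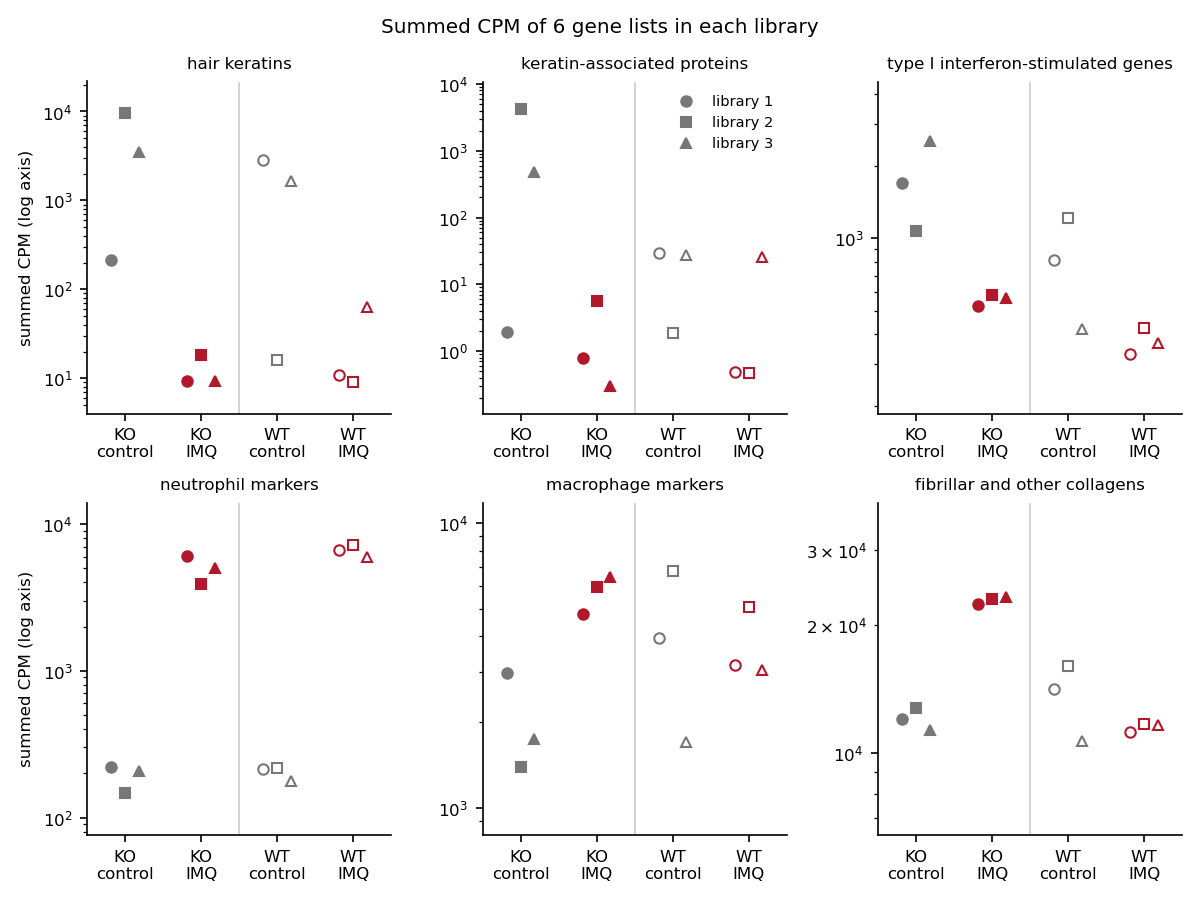
Summed CPM of 6 gene lists on log axes in each library (filled symbols LCN2 KO, open symbols WT, grey control, red IMQ; the shape gives the library number). KO control libraries 2 and 3 hold 9582 and 3494 CPM of hair keratins against 214.6 CPM in library 1, while neutrophil markers separate IMQ from control in both genotypes and collagens lie at 22350 to 23310 CPM in KO IMQ against 11300 to 12770 CPM in KO control libraries.

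Sebaceous lipid genes fell, with 11 of 19 lower and 1 higher, 5 to 7 without IMQ libraries 1, 2 or 3 or control library 3. *Scd3*, a stearoyl-CoA desaturase of sebocytes, had 519.9, 334 and 569 CPM in the control and 6.05, 7.78 and 3.6 CPM in the IMQ libraries (log2 fold change -6.35 ± 0.69 (SE), adjusted p = 0.000139). *Awat2*, which makes wax esters, had 198, 95.9 and 141 and 5.68, 8.48 and 3.66 CPM (log2 fold change -4.61 ± 0.68 (SE), adjusted p = 0.000981). *Dgat2l6* fell (log2 fold change -3.06 ± 0.68). Adipocyte genes gave 4 falls among 19, 1 to 2 without IMQ libraries 1 or 3 or control library 1. Of all genes tested 11.2% were called lower. *Lep* (leptin) changed by -2.28 ± 0.63 and *Cidea*, a lipid droplet gene of sebocytes too, by -1.77 ± 0.47, while *Adipoq* was not called (log2 fold change -0.50 ± 0.38 (SE), adjusted p = 0.364). The *Lep* call was lost without IMQ libraries 1 or 3 or control libraries 1 or 2 (adjusted p = 0.053 to 0.0894) and the *Cidea* call without IMQ libraries 1 or 3 (adjusted p = 0.0635 to 0.0817).

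Genes of the ceramide barrier lipids rose, with 16 of 24 higher and 2 lower. *Cers3*, the ceramide synthase for very long acyl chains, had 28.4, 46.1 and 44.9 CPM in the control and 143, 137 and 148 CPM in the IMQ libraries (log2 fold change 1.84 ± 0.25 (SE), adjusted p = 0.000574). *Degs2*, which makes phytoceramides, had 4.66, 3.46 and 6.52 and 77.1, 60.9 and 59.2 CPM (log2 fold change 3.75 ± 0.28 (SE), adjusted p = 1.15e-05). Both genes that fell elongate fatty acids, namely *Elovl6* (2088, 1373 and 1591 to 227, 265 and 176 CPM, log2 fold change -2.92 ± 0.61 (SE), adjusted p = 0.00588) and *Elovl7* (-1.13 ± 0.19). Of 22 cholesterol genes 1 rose and 6 fell, 2 to 3 without IMQ libraries 1 or 3 or control libraries 2 or 3. The shares over all genes tested were 14.1% higher and 11.2% lower. *Insig1*, the sterol-regulated retention protein, changed by -0.97 ± 0.23 and the desaturase gene *Sc5d* by -0.90 ± 0.19 on the log2 scale.

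Dermal matrix genes rose in the KO libraries. Of 20 collagen genes 13 rose and 2 fell, and the rise count was 8 without control library 3 and at most 10 with any other single KO library left out. *Col1a1*, the main chain of dermal collagen, had 2122, 2701 and 2518 CPM in the control and 4839, 4506 and 4283 CPM in the IMQ libraries (log2 fold change 0.89 ± 0.15 (SE), adjusted p = 0.00181). *Col13a1*, a transmembrane collagen, rose by 2.28 ± 0.33, and *Col11a1* fell from 40.7, 173 and 107 to 6.11, 10.3 and 3.66 CPM (log2 fold change -3.99 ± 0.80 (SE), adjusted p = 0.00535). Against control library 1 alone the *Col11a1* change was -2.61 (adjusted p = 0.116). Fibroblast markers gave 9 rises among 20 and no fall, with a summed level of 6555 to 8535 CPM in the control and 10780 to 13280 CPM in the IMQ libraries; the part of the fibroblast level in the collagen result was not tested. *Tnc* (tenascin C, a matrix protein of wounds) had 17.5, 60.3 and 37.6 and 248, 453 and 1242 CPM (log2 fold change 4.08 ± 0.73 (SE), adjusted p = 0.0028). *Crabp1*, a retinoic acid binding protein, had 15.8, 16.7 and 18.1 and 68.4, 52.8 and 58.9 CPM (log2 fold change 1.83 ± 0.15 (SE), adjusted p = 1.96e-05), and the receptor gene *Pdgfra* was not called (log2 fold change 0.38 ± 0.22 (SE), adjusted p = 0.232). Of 21 matrix metalloproteinases and inhibitors 11 rose and none fell, including the stromelysin *Mmp3* (106, 42 and 73.7 to 195, 239 and 260 CPM, log2 fold change 1.65 ± 0.32 (SE), adjusted p = 0.00376) and *Mmp10*, which was 91.4-fold higher over the summed counts (95% exact interval 24.8 to 763).

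Endothelial and adhesion genes gave 10 rises among 18 and no fall. *Pecam1*, the junction protein CD31, had 155, 79.9 and 134 CPM in the control and 312, 313 and 323 CPM in the IMQ libraries (log2 fold change 1.36 ± 0.25 (SE), adjusted p = 0.00309). *Vwf*, the von Willebrand factor gene, rose by 2.39 ± 0.27. Of 21 Toll-like receptors and adaptors 13 rose and *Tlr3* fell (-0.89 ± 0.27). The rise count was 8 without IMQ library 1 and at most 11 with any other single KO library left out. The *Tlr3* call was lost without IMQ libraries 1, 2 or 3 or control library 3 (adjusted p = 0.0711 to 0.139). *Tlr7*, the receptor that IMQ engages, had 25.1, 14.8 and 19.2 CPM in the control and 74.6, 76.7 and 85.6 CPM in the IMQ libraries (log2 fold change 2.0 ± 0.46 (SE), adjusted p = 0.00985). *Tlr13* and the lipopolysaccharide co-receptor gene *Cd14* rose by 3.28 ± 0.61 and 2.37 ± 0.47. Macrophage markers rose in the same libraries, and their part in these values was not tested.

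Of 12 genes of the EGF family 5 rose, all of them ligands, and 2 fell, the ligand gene *Btc* (-1.77 ± 0.38) and the receptor inhibitor gene *Lrig1* (-0.85 ± 0.15). *Areg* (amphiregulin) had 5.72, 8.74 and 4.96 CPM in the control and 18.2, 17.1 and 17.2 CPM in the IMQ libraries (log2 fold change 1.44 ± 0.22 (SE), adjusted p = 0.00115). *Hbegf* had 11.1, 9.86 and 8.17 and 49.5, 62.3 and 99.1 CPM (log2 fold change 2.85 ± 0.23 (SE), adjusted p = 2.06e-05). *Epgn* (epigen) rose by 2.32 ± 0.26. In the TGF-β list 5 of 18 rose and 2 fell, against 14.1% of all genes tested called higher and 11.2% lower. *Tgfb1* rose from 38.1, 35.4 and 33.8 to 99.6, 117 and 127 CPM (log2 fold change 1.68 ± 0.24 (SE), adjusted p = 0.000802), and the matricellular gene *Ccn2* was higher by 1.74 ± 0.29. Of 20 glycolysis genes 11 rose and 1 fell. *Slc2a1*, the glucose transporter GLUT1, had 49.7, 51.7 and 53.1 and 183, 133 and 198 CPM (log2 fold change 1.73 ± 0.18 (SE), adjusted p = 0.000104). *Hif1a* rose by 1.28 ± 0.12 and the lactate exporter gene *Slc16a3* by 0.99 ± 0.22.

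Among 19 epidermal transcription factors 7 rose and 3 fell, with *Klf4* from 240, 257 and 254 to 435, 476 and 431 CPM (log2 fold change 0.84 ± 0.14 (SE), adjusted p = 0.0014) and the AP-1 gene *Fosl1* from 0.985, 0.906 and 0.402 to 4.46, 5.91 and 4.2 CPM (log2 fold change 2.65 ± 0.37 (SE), adjusted p = 0.000625). Cell division genes did not rise, with 0 of 42 higher, 2 lower (*Pcna*, -0.67 ± 0.18, and *Uhrf1*, -1.07 ± 0.35) and a median log2 fold change of -0.55. Over all genes tested the shares were 14.1% higher and 11.2% lower. The *Pcna* call was lost without IMQ libraries 1 or 3 or control library 2 (adjusted p = 0.0586 to 0.0716) and the *Uhrf1* call without IMQ libraries 1, 2 or 3 or control libraries 2 or 3 (adjusted p = 0.0622 to 0.166). *Mki67* had 245, 455 and 289 CPM in the control, library 2 being the highest, and 194, 179.9 and 149 CPM in the IMQ libraries (log2 fold change -0.92 ± 0.41 (SE), adjusted p = 0.118). The growing follicle is itself a proliferating tissue, and the part of the hair content of the control libraries in these values was not tested. None of 35 ribosome biogenesis genes was called, *Ncl* for instance changing by 0.04 ± 0.15.

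Clock genes gave 2 rises and 4 falls among 18, against 14.1% of all genes tested called higher and 11.2% lower. *Bhlhe41* fell from 19.6, 20.6 and 14.5 to 3.3, 4.74 and 4.62 CPM (log2 fold change -2.11 ± 0.23 (SE), adjusted p = 0.000127). *Npas2* fell (log2 fold change -2.18 ± 0.34), and *Arntl* (BMAL1) had 27.8, 26.1 and 29.7 and 18.4, 17.4 and 11.6 CPM (log2 fold change -0.82 ± 0.22 (SE), adjusted p = 0.0188), a call lost without IMQ library 3 or control library 3 (adjusted p = 0.0602 to 0.0743). The time of day of sampling was not given in the sources used here. In the iron list 4 of 16 rose and 5 fell, the rise count being 2 without control libraries 2 or 3 and the fall count 3 without IMQ libraries 2 or 3 or control library 2. *Hamp*, which encodes hepcidin, the hormone that blocks iron export, fell (-5.73 ± 1.13). Its mouse paralogue *Hamp2* had 47, 11.7 and 40.5 CPM in the control and 2, 0 and 1 counts in the IMQ libraries (597-fold lower over the summed counts (95% exact interval 204 to 2900)). The LCN2 receptor gene *Slc22a17* was not called (log2 fold change -0.48 ± 0.27 (SE), adjusted p = 0.217). Erythroid markers gave 4 rises among 7. The rise count was 1 to 2 without IMQ library 2 or control libraries 1, 2 or 3, and at most 3 with any other single KO library left out. The haemoglobin gene *Hba-a1*, which has a near-identical copy, had 34.3, 20.1 and 44.3 and 100.1, 218 and 59.4 CPM and was not called (log2 fold change 1.93 ± 0.67 (SE), adjusted p = 0.0574).

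Of 26 skeletal muscle genes 8 fell and 3 rose, against 11.2% of all genes tested called lower and 14.1% higher. The fall count was 2 to 4 without IMQ libraries 1 or 3 or control libraries 1 or 3. *Pvalb* fell from 352, 177 and 388 to 32.8, 73.1 and 34.7 CPM (log2 fold change -2.71 ± 0.41 (SE), adjusted p = 0.00114), and *Acta1* was not called (log2 fold change -0.34 ± 0.24 (SE), adjusted p = 0.331). The muscle sum was 10370 to 19430 CPM in the control and 10130 to 15040 CPM in the IMQ libraries, with overlapping ranges. Of 7 aryl hydrocarbon receptor genes 2 rose, *Tiparp* by 0.97 ± 0.21 and *Nqo1* by 0.61 ± 0.18, the latter a call lost without IMQ libraries 1 or 3 or control libraries 2 or 3 (adjusted p = 0.0738 to 0.0838), while *Ahr* was not called (log2 fold change -0.09 ± 0.24 (SE), adjusted p = 0.822). Among 10 Schwann cell markers only *Ngfr* was called (-1.70 ± 0.47, a call lost without IMQ libraries 2 or 3 or control library 1 (adjusted p = 0.0576 to 0.089)).

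The same contrast in the WT libraries called 2633 genes higher (14.2%) and 2653 lower (14.3%). Of the genes called higher, 1196 were called in both genotypes, which is 45.8% of the KO calls and 45.4% of the WT calls. Of those called lower 1044 were shared, 50.2% of the KO and 39.4% of the WT calls. Whether called in WT or not, 2123 of the 2611 genes higher in the KO libraries had a WT log2 fold change above 0. Of the 2080 lower in the KO libraries, 1861 had one below 0 in WT. A total of 60 genes were called higher in the KO and lower in the WT libraries, and 15 the reverse. The difference of the responses, tested as an interaction over all 12 libraries, was called for 253 genes as higher in the KO libraries (1.37%) and for 145 genes as lower (0.783%). These counts depended on the fit more than those of the KO response itself, rising to 1074 and 954 with DESeq2. Leaving out any of the 12 libraries moved them by more than 1.5 times, to 2 to 1015 and 0 to 912, and with KO control library 1 as the only KO control both counts were 0.

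**Figure D4:**
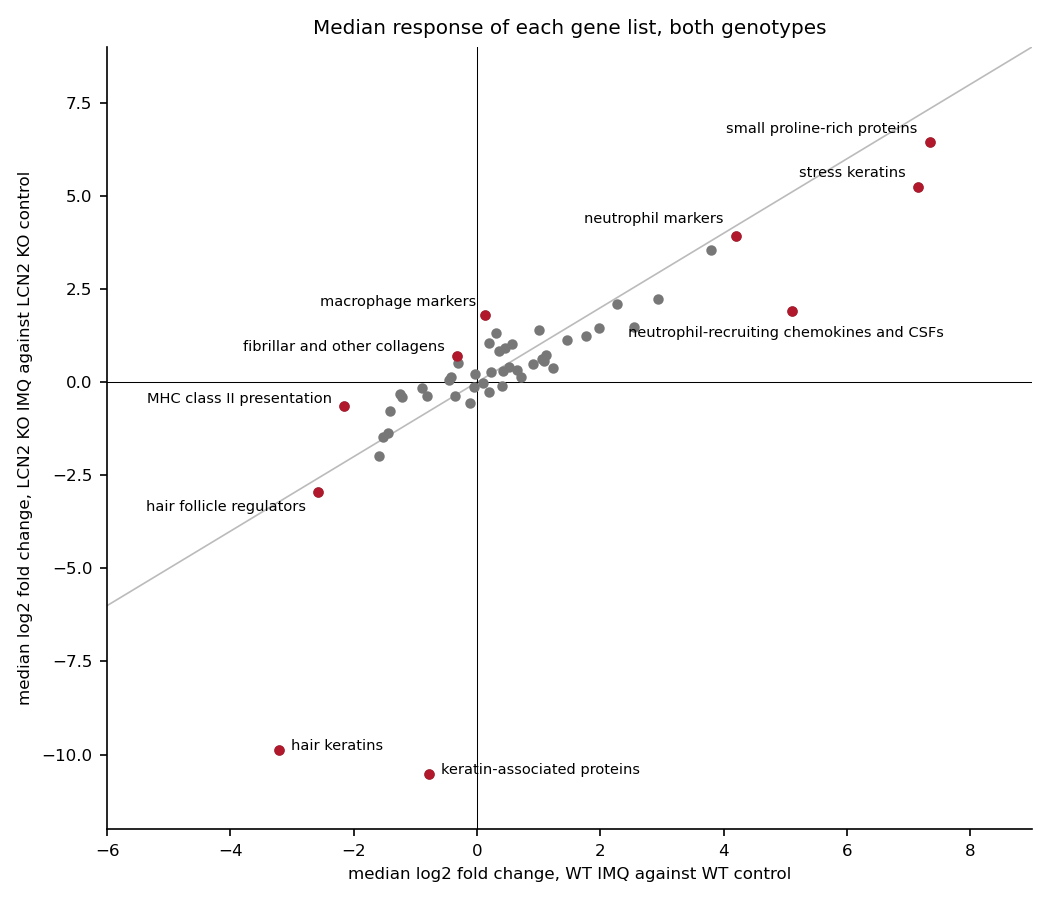
Each point is 1 gene list with at least 4 tested members, placed by its median log2 fold change in WT (x axis) and in LCN2 KO (y axis), with the line of equal medians in grey. Small proline-rich proteins (7.34 and 6.44) and neutrophil markers (4.20 and 3.92) had a lower median in the KO libraries, and macrophage markers (0.13 and 1.80) and collagens (-0.32 and 0.69) a higher one; the medians were not tested against each other. The lowest KO point, keratin-associated proteins (-0.78 and -10.51), is a fitted median, which was -7.71 with low-count genes at their bound or ratio and rests on KO control libraries 2 and 3.

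Side by side, median log2 fold changes in the KO and WT libraries were 5.25 and 7.15 for stress keratins and 6.44 and 7.34 for SPRR genes, and the difference was called for no member of either list. It was called, lower in the KO libraries, for 3 of 16 clade B serpins, 1 of 17 kallikreins and epidermal proteases and 1 of 18 cornified envelope scaffold genes. Over all genes tested the share called lower was 0.783%. Without WT IMQ library 1, and without WT IMQ library 3, 0 genes were called lower, so that none of the lower differences in this paragraph held. *Krt16* rose by 5.87 in the KO and by 7.92 in the WT libraries (difference -2.05 ± 0.53 on the log2 scale, adjusted p = 0.0651). In the IL-17 and IL-23 list 5 of 17 differences were called, all of them lower in the KO libraries, and in the IL-1 and IL-36 list 3 of 17. *Il17c*, at 2 to 8 counts per KO library, rose in WT skin (5.75 ± 0.67 (SE), adjusted p = 0.000107; difference -5.44 ± 0.95 on the log2 scale, adjusted p = 0.0249). *Il1f6* rose in both, by 3.22 and 5.06 (difference -1.84 ± 0.35 on the log2 scale, adjusted p = 0.0311). *Ccl20* fell in the KO libraries and changed by 0.14 in WT (difference -3.23 ± 0.68 on the log2 scale, adjusted p = 0.0423). The difference was lost for *Il17c* without IMQ libraries 1 or 2, control libraries 2 or 3, WT IMQ libraries 1 or 3 or WT control libraries 1 or 2 (adjusted p = 0.0523 to 0.0861), for *Il1f6* without IMQ libraries 1, 2 or 3, control libraries 2 or 3, WT IMQ libraries 1 or 3 or WT control libraries 1 or 2 (adjusted p = 0.05 to 0.103) and for *Ccl20* without IMQ libraries 1 or 2, control libraries 2 or 3, WT IMQ libraries 1 or 3 or WT control libraries 1 or 2 (adjusted p = 0.0633 to 0.127).

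The genes with the smallest p for a lower response in the KO libraries were *Zc3h12a*, *Gsdma3*, *Slc5a1*, *Nod2* and *Areg*. *Zc3h12a* rose by 0.85 in the KO and 2.66 in the WT libraries (difference -1.81 ± 0.24 on the log2 scale, adjusted p = 0.017), and *Areg* by 1.44 and 3.71 (difference -2.27 ± 0.32 on the log2 scale, adjusted p = 0.017). *Nod2*, a sensor of bacterial muramyl dipeptide, had 15.8, 13.1 and 20.2 CPM in the KO control and 28.2, 19.2 and 23.8 CPM in the KO IMQ libraries, without a call, and 8.93 ± 1.43 CPM in the WT control and 50.5 ± 2.26 CPM in the WT IMQ libraries (SD, n = 3 each). The sodium-glucose transporter gene *Slc5a1* rose from 10.7, 12.2 and 14.7 to 69.5, 44.7 and 59.7 CPM, against a log2 fold change of 4.06 in WT. *Gsdma3*, a gasdermin of skin, fell from 17.8, 13.1 and 23 to 1.22, 1.23 and 0.9 CPM, against -1.24 in WT. The *Zc3h12a* call was lost without IMQ library 2 or WT IMQ libraries 1 or 3 (adjusted p = 0.0529 to 0.0662). The *Areg* call was lost without IMQ library 2 or WT IMQ libraries 1 or 3 (adjusted p = 0.0596 to 0.0668), the *Nod2* call without IMQ library 2 or WT IMQ libraries 1 or 3 (adjusted p = 0.0596 to 0.0667), the *Slc5a1* call without IMQ library 2 or WT IMQ libraries 1 or 3 (adjusted p = 0.0529 to 0.0643) and the *Gsdma3* call without IMQ library 2 or WT IMQ libraries 1 or 3 (adjusted p = 0.0596 to 0.0662).

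The genes with the smallest p for a higher response in the KO libraries were *Cxcr4*, *Tpgs1*, *Eva1b*, *Hpcal1* and the gene with identifier ENSMUSG00000118642. *Cxcr4*, the receptor for CXCL12, had 27.6, 23.6 and 19.6 CPM in the KO control and 58, 55.5 and 64.1 CPM in the KO IMQ libraries, and 31.9 ± 0.679 CPM in the WT control and 24.1 ± 1.25 CPM in the WT IMQ libraries (SD, n = 3 each) (difference 1.73 ± 0.18 on the log2 scale, adjusted p = 0.00695). *Tpgs1*, a subunit of the tubulin polyglutamylase complex, had 7.75, 7.03 and 8.22 and 25.9, 26.9 and 24.2 CPM in the KO libraries, and 19.9 ± 4.63 CPM in the WT control and 10.3 ± 2.18 CPM in the WT IMQ libraries (SD, n = 3 each) (difference 2.68 ± 0.28 on the log2 scale, adjusted p = 0.00695). Both calls held without each of the 12 libraries in turn. Of 9 other settings, the *Cxcr4* call was kept in 8 (difference 1.51 to 1.79) and the *Tpgs1* call in 7 (2.12 to 2.69). The *Eva1b* difference was lost without IMQ library 2 or WT IMQ libraries 1 or 3 (adjusted p = 0.0529 to 0.0633), the *Hpcal1* difference without IMQ library 2 or WT IMQ libraries 1 or 3 (adjusted p = 0.0596 to 0.0662) and that of ENSMUSG00000118642 without IMQ library 2 or WT IMQ library 3 (adjusted p = 0.0529 to 0.0662). In 6 of 20 collagen genes the difference was called, all higher in the KO libraries, against 1.37% of all genes tested. Without IMQ library 2 or WT IMQ library 3 only 2 genes in all were called higher. These were *Cxcr4* and *Tpgs1*, so that no collagen gene kept its call there. *Col1a1* rose in the KO and fell in the WT libraries (-0.48; difference 1.37 ± 0.21 on the log2 scale, adjusted p = 0.0195), and its difference was lost without IMQ libraries 1 or 2, control library 3, WT IMQ libraries 1 or 3 or WT control library 1 (adjusted p = 0.05 to 0.0787). The collagen sum was 10630 to 15970 CPM in the WT control and 11160 to 11660 CPM in the WT IMQ libraries, against 11300 to 12770 CPM in the control and 22350 to 23310 CPM in the IMQ libraries of the KO groups. WT control library 2 held 6779 CPM of macrophage markers against 3962 and 1709 CPM in the other WT controls, and its part in these differences was not tested. MHC class II genes fell in WT skin (10 of 11) and 1 of 11 fell in KO skin, with a called difference for 1 of 11. *Cd74* changed by -0.65 and -2.55 (difference 1.90 ± 0.59 on the log2 scale, adjusted p = 0.0936).

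**Figure D5:**
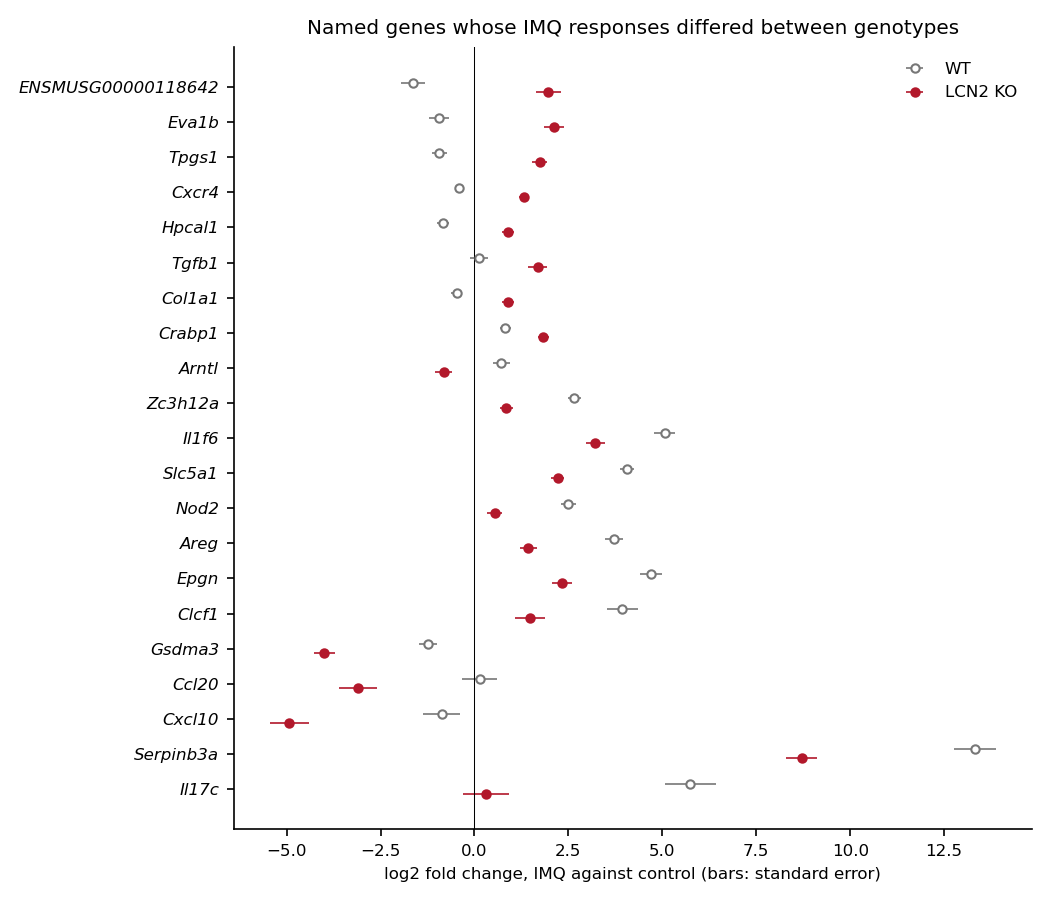
Log2 fold change of IMQ against control in LCN2 KO (red, filled) and WT (grey, open) libraries, with bars of 1 standard error, for the 21 named genes whose difference of responses had an adjusted p under 0.05. Cxcr4, Tpgs1, Eva1b, Hpcal1, Col1a1 and ENSMUSG00000118642 rose in KO and fell in WT libraries, Arntl did the opposite, and Il17c lies at 0.31 in KO and 5.75 in WT.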

How the data were processed

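RNA from the back skin of 12 mice was sequenced by the authors, with paired reads of 150 bp, and raw gene counts per library were deposited in 1 table. The submitters' processing notes name HISAT and the build mm8, while the counter and the gene annotation are not given in the sources used here. Gene names came from GENCODE M21 (91.5% of the 56923 identifiers matched; unmatched identifiers held 0.567% of the counts), and 0 value columns were left without a sample. Columns were mapped to samples by the labels, and the headers of 2 of them carry a repeated library identifier.

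Counts were filtered with filterByExpr (minimum count 10, minimum total 15), scaled by TMM and fitted with edgeR 4.0.16 (R 4.3.3, robust quasi-likelihood, prior count 0.125) with a mean for each of the 4 groups over all 12 libraries. The contrasts tested were the IMQ response in KO, that in WT, and their difference, with Benjamini-Hochberg adjustment over 18529 genes and a threshold of 0.05. CPM values are counts scaled to library size with TMM factors. On simulated counts 86% of 100 genes changed 4-fold and 50% of 100 changed 2-fold were recovered for the KO response (18151 genes in that step). In the same step 11 unchanged genes were called. The changed genes left out low-count genes and were far fewer than the genes called here, so these rates do not carry over to the whole response. DESeq2 1.42.0, other filters, a replicate block and single libraries left out were tried as alternatives. Tables were joined with Python 3.11.15 and pandas 2.3.3, exact intervals came from scipy 1.17.1 and figures from matplotlib 3.10.9. With 3 against 3 an exact permutation test cannot go below p = 0.1, so that none was used for single genes.

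Named genes were the leading genes of 52 lists, the 8 largest rises and 8 largest falls of the KO response (protein-coding, adjusted p under 0.05, groups apart, mean of at least 1 CPM), up to 2 further called members per list by fold change, up to 5 genes per direction of the difference by adjusted p, and the genes the study names for this experiment. Members and lists were chosen with earlier results of these data known, and any other gene named was chosen after its values were seen. The values of a few listed genes are not reported here.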

Additional observations from a re-analysis of the deposited data

Results flagged for a closer look

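The IMQ response differed between genotypes, by the interaction test of edgeR with an adjusted p under 0.05, for 21 of the named genes. All differences are log2 values, KO response minus WT response. The response was higher in the KO libraries for *Cxcr4* (1.73), *Tpgs1* (2.68), *Eva1b* (3.08), ENSMUSG00000118642 (3.60), *Hpcal1* (1.72), *Col1a1* (1.37), *Crabp1* (1.01) and *Tgfb1* (1.56). It was lower in the KO libraries for *Zc3h12a* (-1.81), *Gsdma3* (-2.76), *Slc5a1* (-1.85), *Nod2* (-1.96), *Areg* (-2.27), *Epgn* (-2.36), *Cxcl10* (-4.06), *Il17c* (-5.44), *Serpinb3a* (-4.61), *Il1f6* (-1.84), *Arntl* (-1.53), *Ccl20* (-3.23) and *Clcf1* (-2.46). Lower covers smaller rises and deeper falls. *Cxcl10* and *Gsdma3* fell further in the KO (-4.93 and -4.00) than in the WT libraries (-0.87 and -1.24). Mean *Cxcl10* was 106 CPM in the KO control and 3.48 CPM in the KO IMQ libraries. In the WT control and WT IMQ libraries it was 4.63 and 2.56 CPM. *Cxcr4* and *Tpgs1* kept the call without each of the 12 libraries, though not under every other setting. The other 19 lost it without at least 1 of the libraries. The call was lost for *Epgn* without IMQ libraries 1 or 2, control library 2, WT IMQ libraries 1 or 3 or WT control library 1 (adjusted p = 0.0516 to 0.0752), for *Cxcl10* without IMQ libraries 1 or 2, control library 3, WT IMQ libraries 1 or 3 or WT control libraries 1 or 2 (adjusted p = 0.0568 to 0.0861), for *Serpinb3a* without control libraries 2 or 3, WT IMQ libraries 1 or 3 or WT control libraries 1 or 2 (adjusted p = 0.0599 to 0.0854) and for *Crabp1* without IMQ libraries 1, 2 or 3, control libraries 2 or 3, WT IMQ libraries 1 or 3 or WT control libraries 1 or 2 (adjusted p = 0.0628 to 0.122). It was lost for *Arntl* without IMQ libraries 1, 2 or 3, control libraries 2 or 3, WT IMQ libraries 1 or 3 or WT control libraries 1 or 2 (adjusted p = 0.057 to 0.124), for *Tgfb1* without IMQ libraries 1, 2 or 3, control libraries 2 or 3, WT IMQ libraries 1 or 3 or WT control libraries 1 or 2 (adjusted p = 0.0706 to 0.136) and for *Clcf1* without IMQ libraries 1 or 2, control libraries 1, 2 or 3, WT IMQ libraries 1 or 3 or WT control libraries 1 or 2 (adjusted p = 0.0514 to 0.14). For the other 12 the libraries are named with the results.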

How the results depend on the processing

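Of 156 named genes called in the KO response, 114 kept the call without each single mouse, 81 under each other setting and 80 under all, and 0 changed sign. The counts of genes higher and lower (2611 and 2080) were 1367 and 1161 with a fold above 2 required, 1592 higher with an unadjusted p and a fold above 2, and 570 and 366 with KO control library 1 as the only control, an alternative chosen after seeing the data. Single libraries left out gave 1736 to 2346 higher and 971 to 1942 lower. For the difference of responses (253 and 145), DESeq2 gave 1074 and 954, single libraries left out 2 to 1015 and 0 to 912, control library 1 alone 0 and 0, and removal of a GC trend, also chosen afterwards, 127 higher. With the replicate block the difference gave 7 and 3, and with the GC trend removed as well 2 and 1, while the KO response gave 2201 and 1521, with 143 of the 156 named calls kept. Deviations of the libraries correlated with GC content at 0.077 to 0.142 (Spearman) in KO IMQ and -0.11 to -0.079 in KO control libraries. The trend thus separated the groups compared. With it removed and no block, 85.9% of the KO calls were shared, and 105 differences were lower. The source of the trend was not tested. Same-numbered KO libraries correlated at -0.092, 0.02 and -0.035 in their deviations, and differently numbered ones at -0.068 to 0.107. With 3 libraries a group these values cannot tell whether the numbers pair the mice. Genes that were not called and changed sign with single libraries left out ranged from -0.288 to 0.092 for *Ahr* (above 0 at 0.03 without IMQ library 2 and 0.092 without control library 3), from -0.254 (without control library 2; -0.098 without IMQ library 2) to 0.653 for *Il6*, and from -0.035 (without control library 1; -0.025 without control library 3) to 0.19 for *Ncl*. With control library 1 alone *Il17c* was at -0.39. The causes were not tested. Depth limits genes near 3 counts per library.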
